A study of Arabidopsis thaliana with 6 samples.

Results

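The genes described here are nuclear genes of Arabidopsis thaliana whose symbols come from screens for organelle RNA processing and related seedling phenotypes. They were chosen by symbol alone: probe sets naming 1 gene whose symbol starts with OTP, CRR, MEF, SLO, PDE, PTAC, MORF, CLB or EMB followed by a digit. The rule found 15 genes among the 13356 genes that have a probe set naming 1 gene, each with 1 probe set. They are 8 OTP genes (organelle transcript processing), 5 CRR genes (chlororespiratory reduction), 1 MEF gene (mitochondrial editing factor) and 1 EMB gene (embryo defective). No SLO, PDE, PTAC, MORF or CLB gene was found. The NCBI gene table used for names holds 231 genes with a matching symbol, 160 of them EMB genes, so the 15 stand for OTP (8 of 10) and CRR (5 of 11) far more than for the other prefixes.

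RNA was measured in seedlings of the Columbia accession (Col-0) that were 10 days old, grown on plates at 22 °C in 24 h of light per day. RNA for 3 arrays came from plants with a mutation in SET DOMAIN GROUP 2 (sdg2) and for the 3 others from wild type plants, with no treatment in either. The labels call the arrays biological replicates but name neither the sdg2 allele nor how the replicates were grown apart, and p-values measure only their spread, part of which may be technical. The SDG2 enzyme places the trimethyl mark on lysine 4 of histone H3 that is found at active genes. Its own transcript could not serve as a check of the genotypes, since none of the probe sets is named for it here.

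Plastids and mitochondria keep small genomes whose transcripts are spliced, trimmed and edited, cytidine to uridine, before they are translated. The factors that do this are encoded in the nucleus, and many are pentatricopeptide repeat (PPR) proteins, in which a row of short repeats binds a particular stretch of organelle RNA. In leaves they are best known for the plastid NDH complex, a photosynthetic relative of respiratory complex I, because several of its ndh transcripts need editing and the loss of 1 PPR protein can remove the complex. The 15 genes are not of 1 kind. CRR41 and CRR42 are known as assembly factors of the NDH complex and not as RNA binding proteins, and EMB2786 carries a name for its embryo phenotype only. A role in organelle RNA processing is thus known for the OTP genes, CRR21, CRR22, CRR28 and MEF8S.

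Values are log2 GCRMA values, made by the authors. On the 6 arrays the median lay between 5.90 and 5.96, and unexpressed probe sets piled up between 2.17 and 2.19. A mean below 3 is called background here, and no fold is read from it. Correlations between arrays were 0.970 to 0.971 across the genotypes and 0.997 to 0.998 within each. The question put to the 15 genes is whether their transcripts differ in seedlings mutant for SDG2.

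OTP84, OTP81, CRR22 and CRR42 rose in sdg2 seedlings, and none of the 15 genes fell. A gene was called when limma gave an adjusted p below 0.05 over all 22746 probe sets. The 4 rises are 26.7% of the 15 genes, where 19.0% of all probe sets were called higher, so the share lies near that of all probe sets. None was called lower in limma, where 17.6% of all probe sets were, with 0 of the 15 lower at an unadjusted p below 0.05 and 0 called lower with unmoderated statistics. The changes of 14 of the 15 genes were positive, with a median of 0.39 on the log2 scale and a range of -0.23 to 1.34. Over all probe sets the median was -0.01 and 41.6% were positive. These medians and signs include genes at background in both groups, 4 of the 15 and 30.8% of all probe sets, whose small changes carry no measured direction. A change of 2-fold or more was called for 2 genes, 13.3% of the 15, where 5.06% of all probe sets rose that far.

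Among the OTP genes 2 of 8 rose and 6 did not pass, with a median of 0.20. Among the CRR genes 2 of 5 rose and 3 did not pass, with a median of 0.72. Over all probe sets 19.0% were called higher. Both prefixes hold too few genes to be told apart from that share or from each other. MEF8S and EMB2786, the only genes of their prefixes, did not pass, with changes of 0.51 and -0.23. In 4 of the 15 genes (OTP43, OTP80, OTP85 and OTP86) both means were below the background line, that of OTP85 in sdg2 only just, at 3.00 after rounding. The changes of 12 to 14 of the 15 genes were positive under the other settings that tested them all.

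**Figure D1:**
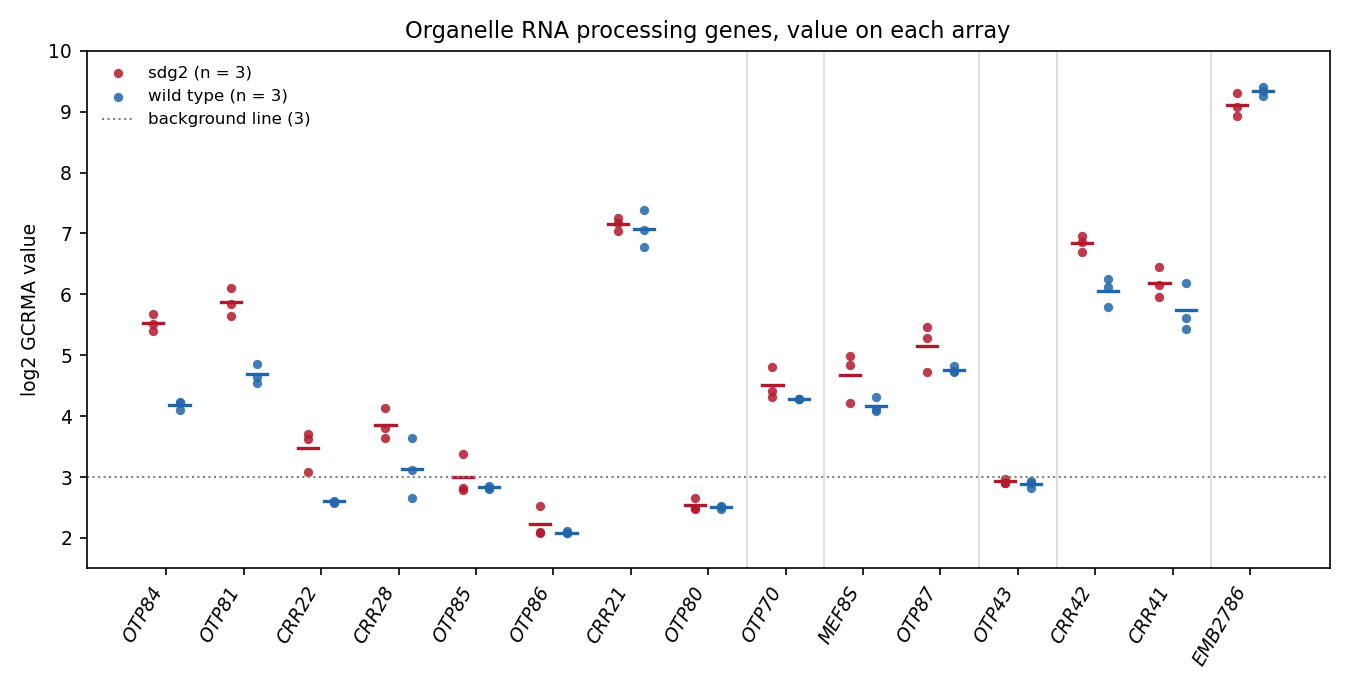
The vertical axis is the log2 GCRMA value and the horizontal axis the 15 genes, grouped by role (plastid editing, plastid splicing, mitochondrial editing, mitochondrial splicing, NDH assembly, EMB2786). Points are single arrays (sdg2 in red, wild type in blue), bars are group means of 3 arrays, and the dotted line marks 3. The sdg2 points of OTP84 lie between 5.40 and 5.68, above all wild type points, and those of OTP80 mix with wild type near 2.5.

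Of the 8 factors of plastid RNA editing 3 rose and 5 did not pass, where 19.0% of all probe sets were called higher. OTP84, a PPR protein that edits sites in ndhB, ndhF and psbZ, had log2 values of 5.68, 5.52 and 5.40 on the sdg2 arrays, against 4.22, 4.1 and 4.24 on the wild type arrays. All sdg2 arrays lay more than 1 unit above all wild type arrays, the clearest separation of the 15 genes. The change was 1.34 ± 0.08 (SE, n = 3 per group), 2.54-fold, with an adjusted p of 2.48e-04 in limma. OTP81, known for editing in the intron of rps12, had 5.65, 6.11 and 5.84 in sdg2, against 4.65, 4.55 and 4.86 in wild type. The groups again did not overlap, and the change was 1.18 ± 0.14, 2.27-fold (adjusted p = 0.00221 in limma).

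CRR22, which edits sites in ndhB, ndhD and rpoB, had 3.09, 3.70 and 3.62 in sdg2, against 2.59, 2.61 and 2.58 in wild type. The wild type arrays sat at background with almost no spread, and all sdg2 arrays were higher. The change was 0.87 ± 0.17 (adjusted p = 0.0121 in limma), and because the wild type level is background it is not a measured ratio of amounts. CRR28, which edits sites in ndhB and ndhD, had 3.65, 3.81 and 4.13 in sdg2, against 3.64, 3.12 and 2.65 in wild type. The lowest sdg2 array lay just above the highest wild type array, so the groups did not overlap, but the wild type arrays spread over about 1 unit. Its change of 0.72 (95% confidence interval 0.00 to 1.44, adjusted p = 0.113 in limma) did not pass. Without wild type replicate 1, the highest of that group, it was 0.97 and passed (adjusted p = 0.0350 in limma).

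CRR21, which edits the ndhD transcript, was well above background on all arrays and did not pass. It had 7.04, 7.26 and 7.18 in sdg2, against 6.78, 7.05 and 7.39 in wild type. The sdg2 arrays lay inside the range of the wild type arrays. The change was 0.08, with a 95% confidence interval of -0.34 to 0.51 that excludes a rise as large as that of OTP84 or OTP81.

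OTP80, OTP85 and OTP86, which edit rpl23, ndhD and rps14, were at or close to background in both groups. OTP80 had 2.48, 2.65 and 2.49 in sdg2, against 2.53, 2.51 and 2.48 in wild type. OTP86 had 2.08, 2.10 and 2.52 in sdg2, against 2.11, 2.09 and 2.08 in wild type. OTP85 had 2.82, 2.79 and 3.38 in sdg2, against 2.86, 2.81 and 2.82 in wild type. In OTP85 and OTP86 a single array, sdg2 replicate 3, stood above the other 5. Their changes of 0.17 and 0.14 became -0.02 and 0.00 without that array. None of them passed. At this signal a fall in these transcripts, or a change that stays within background, was not detectable.

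The splicing factors did not pass. OTP70, which is needed to splice the plastid rpoC1 transcript, had 4.32, 4.42 and 4.80 in sdg2, against 4.29 on each wild type array. The groups did not overlap, but sdg2 replicate 3 held most of the difference. The wild type arrays had almost no spread, as for CRR22 at background, so 4.29 may not be a measured level. The change was 0.23 (95% confidence interval -0.11 to 0.56), and 0.08 without that array. OTP43, which is needed to splice the first intron of the mitochondrial nad1 transcript, was at background, with 2.97, 2.91 and 2.91 in sdg2, against 2.93, 2.91 and 2.82 in wild type.

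The mitochondrial editing factors OTP87 and MEF8S had sdg2 replicate 3 apart from the other mutant arrays. OTP87, which edits nad7 and atp1, had 5.28, 5.46 and 4.72 in sdg2, against 4.72, 4.82 and 4.75 in wild type. MEF8S, a close relative of MEF8, had 4.98, 4.84 and 4.21 in sdg2, against 4.08, 4.32 and 4.11 in wild type. In both genes sdg2 replicates 1 and 2 were above all wild type arrays and replicate 3 was at the wild type level. The changes over all arrays, 0.39 (95% confidence interval -0.12 to 0.90) for OTP87 and 0.51 (-0.05 to 1.07) for MEF8S, did not pass. Without sdg2 replicate 3 the change of OTP87 was 0.61 (adjusted p = 0.00552 in limma) and that of MEF8S was 0.74 (adjusted p = 0.00786 in limma). Neither gene was called under any other setting. Replicate 3 of sdg2 was thus low in these 2 genes and high in OTP70, OTP85 and OTP86.

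The NDH assembly factors CRR41 and CRR42 were both above background in all samples. CRR42 had 6.70, 6.96 and 6.86 in sdg2, against 5.79, 6.26 and 6.12 in wild type. All sdg2 arrays were higher, and the gene rose by 0.78 ± 0.14, 1.72-fold (adjusted p = 0.00912 in limma). CRR41 had 6.45, 6.16 and 5.96 in sdg2, against 5.43, 5.62 and 6.19 in wild type. Wild type replicate 3 lay above 2 of the mutant arrays, so the groups overlapped. Its change of 0.44 (95% confidence interval -0.17 to 1.05) did not pass, and without that array it was 0.66 (adjusted p = 0.0496 in limma).

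EMB2786 was well above background on all arrays and was the only gene of the 15 with a negative change. It had 8.93, 9.30 and 9.08 in sdg2, against 9.41, 9.34 and 9.25 in wild type. The highest mutant array lay inside the wild type range, and the change of -0.23 (95% confidence interval -0.50 to 0.04) did not pass. Without sdg2 replicate 2 it was -0.33 and passed (adjusted p = 0.0348 in limma).

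**Figure D2:**
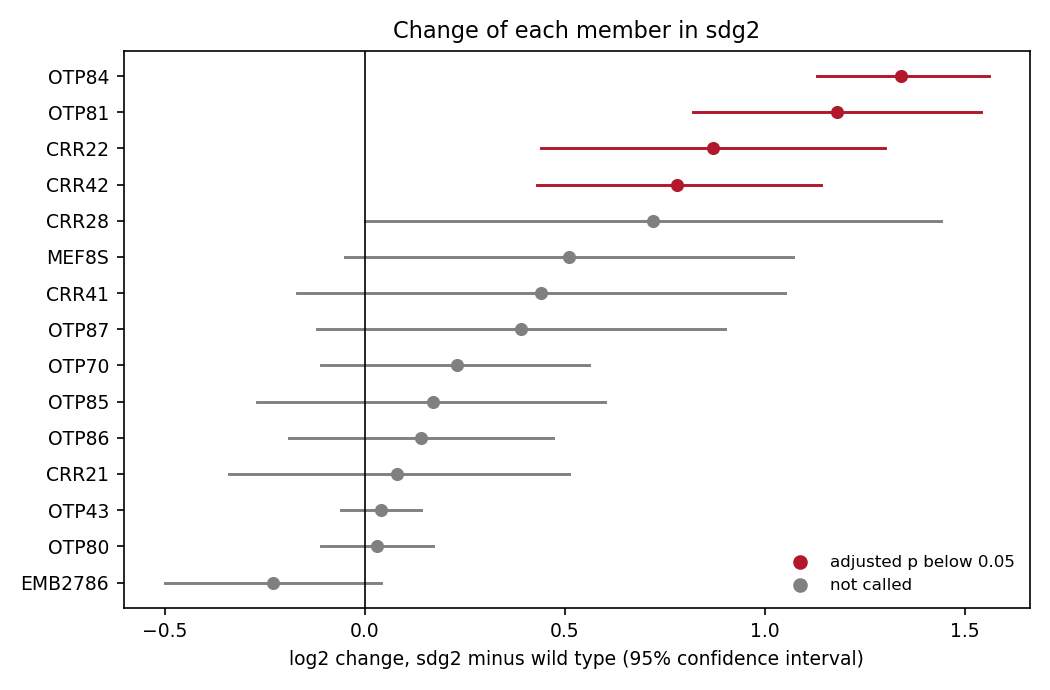
The horizontal axis is the log2 change, sdg2 minus wild type, and each row is 1 gene. Points are estimates from limma over 3 arrays per group, lines are 95% confidence intervals, and red marks an adjusted p below 0.05. The 4 called genes lie between 0.78 and 1.34, and the interval of EMB2786 reaches 0.04.

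Groups did not overlap in 6 of the 15 genes, the 4 called genes with CRR28 and OTP70, all higher in sdg2. That is 40.0% of the genes, where 48.3% of all probe sets did not overlap in either direction and 24.2% did so with sdg2 higher. The calls for OTP84 and OTP81 were made with each of the 6 arrays left out in turn, with changes of 1.27 to 1.41 and of 1.06 to 1.29. Those for CRR22 and CRR42 were also made each time, with changes of 0.76 to 1.06 and of 0.65 to 0.88. Both were lost when a change of more than 0.5 was asked for (adjusted p = 0.223 and 0.273 in limma's treat). The share of calls also depends on signal. When only the 13262 probe sets that reach 5 on 3 or more arrays were tested, 33.5% were called higher. Only 6 of the 15 genes pass that filter, some of them through the sdg2 arrays alone, so the number called among them is not read as support.

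**Figure D3:**
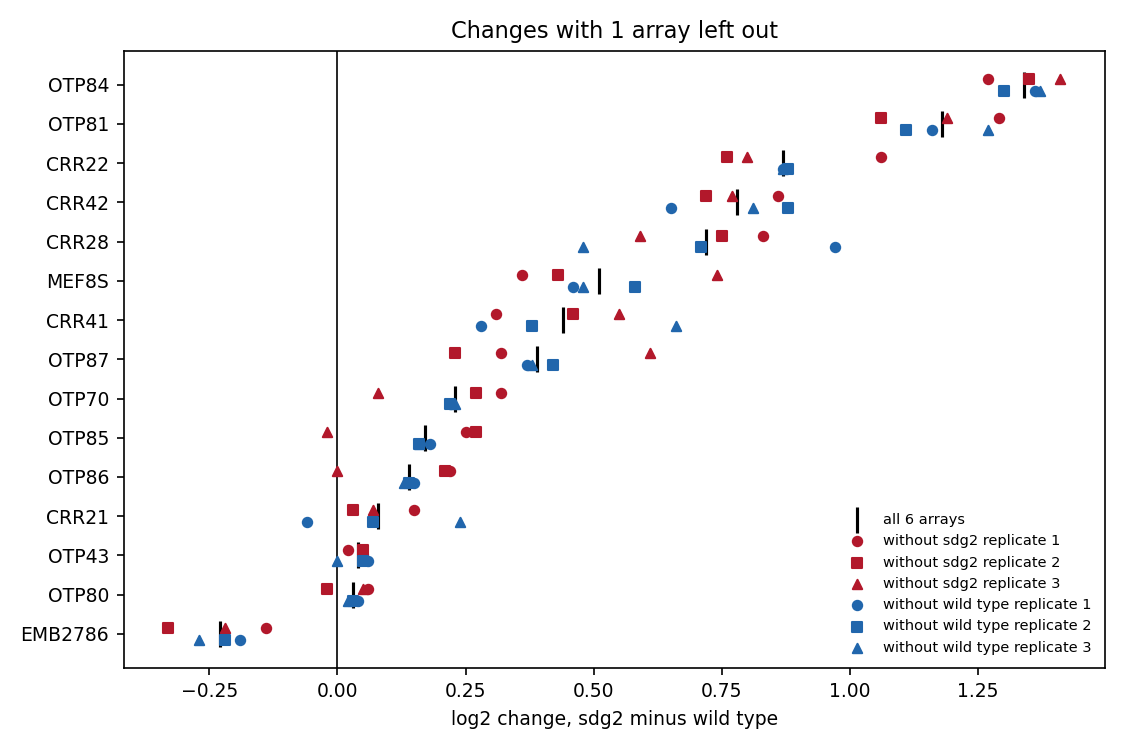
The horizontal axis is the log2 change, sdg2 minus wild type, and each row is 1 gene. Black bars are the changes over all 6 arrays and coloured symbols the changes with 1 array left out (red for an sdg2 array, blue for a wild type array). OTP84 stays between 1.27 and 1.41, while OTP85, OTP86 and OTP70 move toward 0 when sdg2 replicate 3 is left out.

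The genes lie on all 5 nuclear chromosomes, 5 on chromosome 1, 2 on chromosome 2, 3 on chromosome 3, 2 on chromosome 4 and 3 on chromosome 5. The protein-coding genes directly beside the 4 risen genes were not called higher where measured. Of the 8 such neighbours 6 have a named probe set, and 1 was called. That neighbour, AT3G57420 next to OTP84, fell by 0.21 on the log2 scale (adjusted p = 0.0426 in limma). UGT71C1 and AT2G29770 on either side of OTP81 had changes of -0.11 and -0.03, and AT5G20940 beside CRR42 had -0.09. Beside the 11 genes that did not pass, 7 of 15 measured neighbours were called. Over all probe sets 36.6% were called in either direction and 19.0% were called higher. The 6 measured neighbours of the risen genes are too few to be told apart from these shares.

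Other nuclear genes of organelle gene expression were listed by locus, and 15 of 89 entries had a probe set naming 1 gene. Only these count as measured, and other entries may lie among the 8730 unnamed probe sets. Of the 15 measured genes 8 rose and 1 fell. That is 53.3% called higher, against 19.0% of all probe sets and 33.5% of those that reach 5 on 3 or more arrays. Many of the measured genes are that bright, so 19.0% is not a like background for them. On the list of editing factors 4 of 6 rose, 0 fell and 2 did not pass, with a median change of 0.75. LPA66, a PPR protein that edits the plastid psbF transcript, had 6.28, 5.90 and 6.13 in sdg2, against 5.20, 5.55 and 5.58 in wild type. It rose by 0.66 ± 0.15 (adjusted p = 0.0192 in limma), a call lost without sdg2 replicate 1 or 3 (adjusted p = 0.0554 and 0.0615 in limma). The other 3 carry only a locus in the annotation used here. AT3G14330 rose by 0.90 ± 0.13, AT5G66520 by 0.89 ± 0.16 and AT1G73530 by 0.84 ± 0.05, with no overlap between the groups in any of them. The 2 that did not pass, AT4G37380 and AT2G17140, had changes of 0.23 and 0.00.

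On the list of splicing factors 3 of 6 rose and 1 fell. CAF1, a plastid intron splicing factor, had 7.23, 7.39 and 7.19 in sdg2, against 5.54, 6.44 and 6.43 in wild type. It rose by 1.14 ± 0.27 (adjusted p = 0.0240 in limma), a call lost without any 1 of the sdg2 arrays (adjusted p of 0.0622 to 0.0801 in limma). CFM3A, of the same CRM domain family, rose by 0.46 ± 0.09, and AT5G46920 by 0.39 ± 0.07. AT5G04810 fell by 0.13 ± 0.03 on the log2 scale, the smallest of these called changes. Leaving out any 1 of the arrays numbered 1 or 2, of either genotype, ended this call (adjusted p of 0.0540 to 0.0671 in limma). RH39, an RNA helicase of plastid ribosomal RNA, rose by 0.30 ± 0.06. It was the 1 gene with a named probe set of the 25 on the list for RNA stability and translation. The RH39 call was lost without wild type replicate 1 or 3 (adjusted p = 0.0510 and 0.0549 in limma). Of the transcription list 2 of 27 had a named probe set, MRL7-L with 0.25 and AT5G15700 with -0.14, and neither passed.

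**Figure D4:**
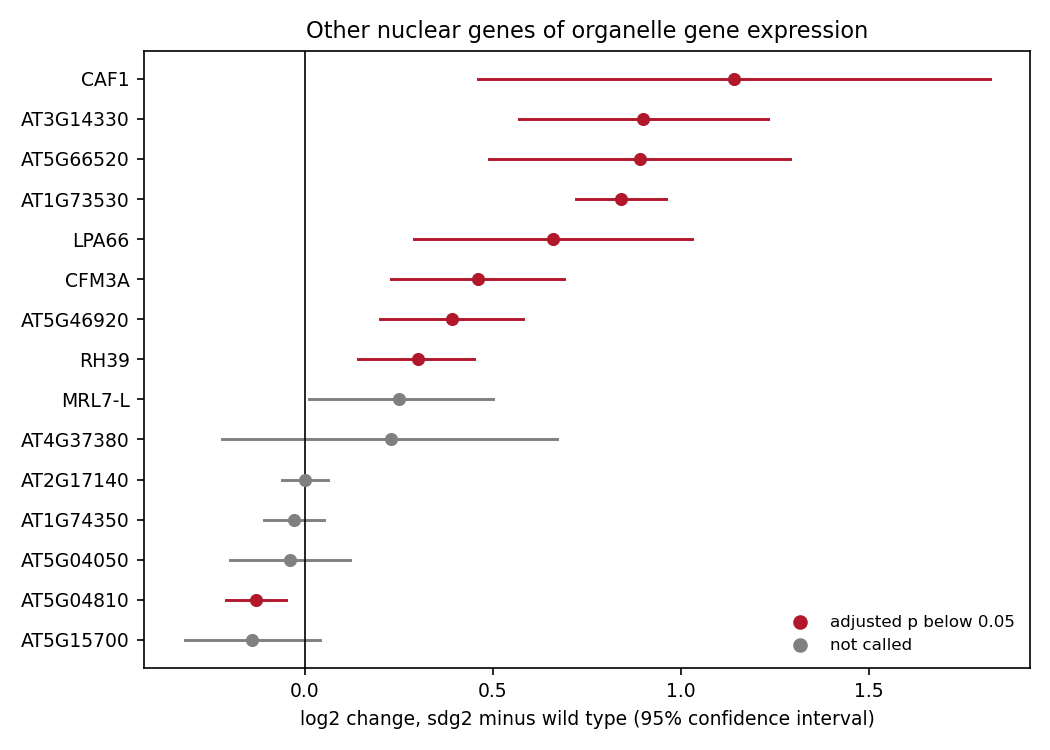
The horizontal axis is the log2 change, sdg2 minus wild type, and each row is 1 of the 15 other measured genes of organelle gene expression. Points are limma estimates over 3 arrays per group, lines are 95% confidence intervals, and red marks an adjusted p below 0.05. CAF1 has the largest rise and the widest interval (0.46 to 1.82), and AT5G04810 is the 1 called fall.

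The organelle transcripts that these factors act on were also on the array, as levels only, since a probe set does not read editing or splicing. Of 12 such transcripts 8 have a probe set naming 1 gene. The plastid ndhD transcript, edited by CRR21, CRR22, CRR28 and OTP85, had 9.59, 9.57 and 9.55 in sdg2, against 9.16, 9.40 and 9.38 in wild type, and rose by 0.25 ± 0.07 (adjusted p = 0.0422 in limma). The rpoC1 transcript, spliced with the help of OTP70, had 10.15, 9.92 and 10.03 in sdg2, against 9.55, 9.70 and 9.81 in wild type. It rose by 0.35 ± 0.09 (adjusted p = 0.0356 in limma). Both calls are weak. They are 2 of the 14 probe sets of these transcripts, where 19.0% of all probe sets were called higher. Plastid transcripts not listed here were also called, in both directions, such as rpoC2 (0.76) and atpA (-2.81). The ndhD and rpoC1 calls were lost with median centring (adjusted p = 0.0690 and 0.0513 in limma) and with 1 array left out. For ndhD these arrays were wild type replicate 3 and each sdg2 array (adjusted p of 0.0607 to 0.118 in limma). For rpoC1 they were wild type replicates 1 and 2 and sdg2 replicates 1 and 3 (adjusted p of 0.0827 to 0.0923 in limma). The psbZ transcript, edited by OTP84, was bright and had a change of 0.02 (95% confidence interval -0.36 to 0.41). The ndhF, rpoB and rps14 probe sets were at background in both groups, as were 4 of the 7 probe sets of nad1, none of which passed. The nad7 transcript, edited by OTP87, had a change of 0.00 (SE 0.02). It lay between 5.24 and 5.28 on all arrays, a spread as small as that of rpoB at background (2.36 to 2.40). The nad7 values may thus not be a measured level, and an unchanged transcript is not read from them.

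Seedlings hold green tissue, root and dividing cells, and in whole seedlings fewer cells of a type and less RNA per cell cannot be told apart. Of the markers listed for dividing cells 2 of 10 were measured, that is, had a probe set naming 1 gene. PRL, a replication licensing gene, rose by 1.00 ± 0.15, and AUR1, with 0.13, did not pass. The summed linear level of the pair was 181 to 213 in sdg2, against 123 to 138 in wild type. This difference came mainly from PRL, with log2 means of 6.87 in sdg2 and 5.87 in wild type. Those of AUR1 were 6.24 and 6.11. Of the green tissue markers 3 of 8 were measured. LHCB4.2 fell by 0.77 on the log2 scale, while RCA and LHCB4.1, with changes of 0.09 and 0.08, did not pass. Their summed level was 48556 to 49973 in sdg2, against 53241 to 57253 in wild type, and LHCB4.2 is the only marker of the 3 with a lower mean in sdg2. Of the root markers 3 of 8 were measured and 2 fell. PYK10 and EXPA18 each fell by 0.33 on the log2 scale, and EXPA7, with -0.75, did not pass. Their sums were 8397 to 9976 in sdg2, against 10415 to 12066 in wild type. These sums are nearly all PYK10, whose log2 means were 13.13 in sdg2 and 13.46 in wild type. None of the 8 measured markers was at background. The part of these marker values in the rises of OTP84, OTP81, CRR22 and CRR42 was not tested.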

How the data were processed

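The deposited table holds 1 column of log2 values per array. GCRMA, which adjusts background, normalizes by quantiles and summarizes probes, is the authors' processing per the submitters' processing notes, and its version is not given in the sources used here. Of 22810 probe sets 64 controls were left out. Per the platform annotation 13513 of the other 22746 name 1 gene, 503 name several and 8730 are unnamed here. All 15 genes matched the NCBI table of assembly TAIR10.1, used only for names and gene order. The brightest probe set stood for a gene.

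A linear model of group means was fitted to all 22746 probe sets (lmFit and eBayes of limma 3.58.1, R 4.3.3). Changes are sdg2 minus wild type and p-values were adjusted by Benjamini-Hochberg over the whole table. Errors are moderated standard errors. The fit was tested on simulated data. The genes, lists and tests were chosen with earlier results of these data known, and the organelle transcripts were added to them later. The naming rule took every gene of a prefix with 5 or fewer, up to 4 called rises and 4 falls of a larger prefix, and up to 3 of each pathway list. The other OTP genes and LPA66 were named after their values were seen. The groups share replicate numbers that the labels tie to no batch. Figures were drawn with matplotlib 3.10.9. The number of arrays limits the precision.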

Additional observations from a re-analysis of the deposited data

How the results depend on the processing

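Other settings were median centring, quantile normalization, a replicate block, array weights, unmoderated statistics, eBayes with trend and robust, a minimum change of 0.5, a filter on dim probe sets (at least 5 on 3 or more arrays), only probe sets naming 1 gene, averaging the probe sets of each gene, and each array left out in turn. The 4 genes called higher were called in all of these, with exceptions under the minimum change and the dim filter. CRR22 and CRR42 were lost with the minimum change of 0.5, which left 2 genes. CRR22 was not tested under the dim filter. OTP84 and OTP81 pass that filter through the sdg2 arrays alone, so their calls under it are not read as support. The minimum change of 0.5 also left 1 of the 9 called pathway genes and 2940 of the 8327 called probe sets. Testing only probe sets naming 1 gene left 4114, by construction. With 1 array left out, 7368 to 7565 probe sets, 4 to 6 of the 15 genes higher, 0 to 1 lower and 6 to 9 pathway genes were called. CRR28, CRR41, EMB2786, MEF8S and OTP87 were each called in 1 setting only. In each case the array left out was the one farthest from the median of its group. Among genes that did not pass, 4 changed sign. OTP80 was at -0.01 with median centring. With 1 array left out OTP80 ranged from -0.02 to 0.06, CRR21 from -0.06 to 0.24, OTP85 from -0.02 to 0.27 and OTP86 from 0.00 to 0.22. The cause was not tested. With the replicate block 4 of the 15 genes were called and none lower, and the calls for LPA66, AT5G04810, ndhD and rpoC1 were lost (adjusted p of 0.0716, 0.0951, 0.0908 and 0.0980 in limma). Unmoderated statistics ended the calls for CAF1, LPA66, ndhD and rpoC1 (adjusted p of 0.0608, 0.0506, 0.0848 and 0.0775), and that for AT5G04810 was lost under the dim filter (0.137) and with eBayes trend and robust (0.175). Deviations of same-numbered arrays correlated at -0.00816, 0.0720 and 0.0636. Arrays with different numbers were not compared, so these values cannot decide whether the numbers pair the samples. Signal limits OTP43, OTP80, OTP85 and OTP86, which lay at or near background. It may also limit OTP70, whose wild type arrays had almost no spread, and the nad7 transcript, with almost no spread over all arrays.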
